A study of Drosophila melanogaster with 2 samples.

Results

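The genes described here were 7 ecdysone response genes outside the nuclear receptor family: br, Eip74EF, Eip93F, E23, Eip63E, ImpL2 and Ldh. The rule that lists them uses no measured value, but the list was drawn up with earlier results of these data known. They are 7 of the 13945 protein-coding genes on the 6 major chromosome arms of Drosophila melanogaster. Chromatin immunoprecipitation and sequencing (ChIP-seq) was done on whole prepupae of 1 day, sex not collected, of the strain CG11294-GFP, which carries an insertion that makes the homeodomain protein CG11294 as a fusion with eGFP. Chromatin was sheared by sonication, and the 2 samples were biological replicates of this single group. The immunoprecipitation used anti-GFP according to the sample description, whereas the antibody field reads CG11294. The sources used here do not give the promoter that drives the fusion protein or the cells that make it, and no input, control precipitation or untagged strain was analysed here. Recovery that does not need the tagged protein therefore cannot be told apart from recovery of CG11294, and "site" below means a place where the authors' processing listed a peak.

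20-Hydroxyecdysone is the steroid hormone of insect moulting and metamorphosis. In late larvae and prepupae its pulses act through a heterodimer of the receptors EcR and Usp, which switches on early regulatory genes whose products then control large sets of late tissue-specific genes. Among the 7 genes, br, Eip74EF and Eip93F encode transcription factors of that cascade, E23 a transporter, Eip63E a protein kinase, ImpL2 a secreted protein and Ldh a metabolic enzyme.

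For each replicate the authors deposited a long ranked list, which holds relaxed peaks, and a thresholded list drawn from it. Peaks were kept in a thresholded list where their irreproducible discovery rate (IDR, a measure of how well ranks repeat) was at or under 0.01. For the series as a whole there were a pooled list of 4330 peaks and the list of IDR between the replicates, here the main list, with 3261 peaks. The thresholded lists of replicates 1 and 2 held 3229 and 2709 peaks. Signal is the authors' enrichment value, whose scale was not given, and is compared by rank within a list. Main-list signals ranged from 2.02 to 1649 with a median of 110.

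All 7 genes held at least 1 main-list summit between 2 kb upstream of the gene and its end, 15 summits in all. The 6 sequences printed here, 201 bases each around the summit, are those of the strongest site, of the 3 intronic sites with the word CACTG 60 to 100 bp out on both sides of the summit, and of the 2 sites at the genes' own promoters. Capitals mark CACTG or its other strand CAGTG, a word common at summits of these lists. The sequences are those of the NCBI RefSeq Release 6 genome in dm6 coordinates and are written 5′ to 3′ on the plus strand. ImpL2, E23, Eip74EF and Ldh are transcribed from the minus strand and Eip93F from the plus strand.
ImpL2 intron, chr3L:4228276-4228476: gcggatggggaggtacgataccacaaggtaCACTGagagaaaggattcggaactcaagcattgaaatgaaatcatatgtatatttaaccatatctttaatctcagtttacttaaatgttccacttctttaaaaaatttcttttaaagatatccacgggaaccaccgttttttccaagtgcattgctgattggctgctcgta
E23 intron, chr2L:3348210-3348410: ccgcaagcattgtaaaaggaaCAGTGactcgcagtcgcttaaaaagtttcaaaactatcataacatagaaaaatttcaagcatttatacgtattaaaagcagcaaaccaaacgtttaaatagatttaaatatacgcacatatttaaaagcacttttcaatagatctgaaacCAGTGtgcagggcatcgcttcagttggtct
Eip74EF intron, chr3L:17566987-17567187: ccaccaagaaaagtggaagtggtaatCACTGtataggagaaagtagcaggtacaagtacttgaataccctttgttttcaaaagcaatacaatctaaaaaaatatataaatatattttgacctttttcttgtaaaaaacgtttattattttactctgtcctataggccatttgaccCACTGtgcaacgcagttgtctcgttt
Eip93F intron, chr3R:21993009-21993209: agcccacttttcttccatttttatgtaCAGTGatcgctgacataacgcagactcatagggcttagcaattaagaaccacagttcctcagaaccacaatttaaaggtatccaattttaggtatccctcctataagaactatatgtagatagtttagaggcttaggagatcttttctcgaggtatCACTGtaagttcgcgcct
E23 promoter, chr2L:3354954-3355154: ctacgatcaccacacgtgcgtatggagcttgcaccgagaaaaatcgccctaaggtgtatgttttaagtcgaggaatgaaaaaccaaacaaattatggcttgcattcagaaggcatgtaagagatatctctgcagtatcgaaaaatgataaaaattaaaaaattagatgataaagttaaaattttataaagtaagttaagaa
Ldh promoter, chr3L:6262773-6262973: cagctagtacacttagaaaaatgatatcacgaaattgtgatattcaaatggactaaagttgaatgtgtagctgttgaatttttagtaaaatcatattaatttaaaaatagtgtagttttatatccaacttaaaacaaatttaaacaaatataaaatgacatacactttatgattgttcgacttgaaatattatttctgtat

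Measured against the rest of the genome, 2418 of the 13945 protein-coding genes (17.3%) had a main-list summit in the same window. The share depended on length: 50% of the 1013 genes of 20 kb or longer had one, and 14.8% of the 12932 shorter genes. Of the genes described here, br, Eip74EF, Eip93F and Eip63E were long by that measure, and all 4 held a summit. E23 (19955 bp), ImpL2 (12142 bp) and Ldh (3590 bp) were shorter, and all 3 held one. In 4 genes (E23 with 4, Eip74EF and Eip63E with 3 each, ImpL2 with 2) there were 2 or more summits, which was so for 5.01% of all protein-coding genes and for 31.8% of the long ones. Per length, the 7 windows together held 0.416 summits per 10 kb, beside 0.244 over the 6 arms. E23 (1.82 per 10 kb), Ldh (1.79) and ImpL2 (1.41) were denser than Eip74EF (0.479), Eip63E (0.310), Eip93F (0.148) and br (0.109). The Ldh value is 1 summit in a window of 5.59 kb, so a short gene with any summit has a high density. The median density was 0 per 10 kb over all protein-coding genes and 0.0586 over the long ones. Because of how the 7 genes were chosen, no test of these shares was made.

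**Figure D1:**
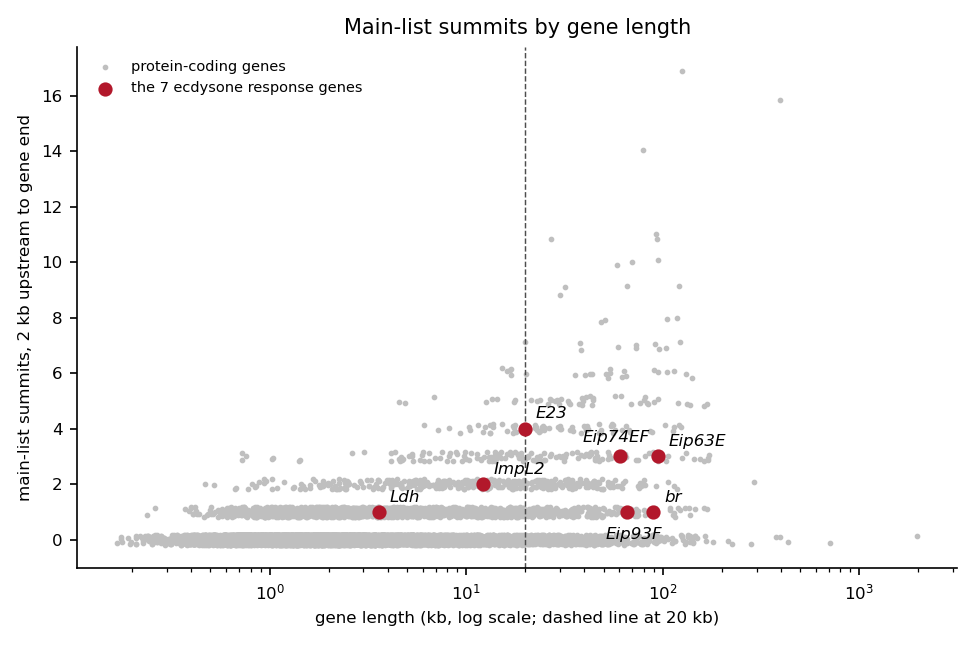
Number of main-list summits from 2 kb upstream to the gene end (vertical axis, small vertical shifts added to the grey points) against gene length in kb on a log scale; each grey point is a protein-coding gene and red points are the 7 ecdysone response genes. E23, just under the dashed line at 20 kb, has 4 summits, whereas br and Eip93F, which are longer than 60 kb, have 1 each.

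Of the 15 sites, 13 lay in introns of the 7 genes, 2 lay within 500 bp of a start site of the gene itself, and 0 were centred in an exon. Counting the start sites of any gene, 3 of the 15 lay within 500 bp of one, since an Eip63E intronic site is also close to a noncoding gene, and 12 lay in introns away from one. In the whole main list, by that same count, 35.8% of the peaks were within 500 bp of a start and 47.6% in introns. These shares are not matched. The 15 sites could lie only in these genes or within 2 kb upstream, whereas the whole list also holds peaks between genes. A summit within 1 kb of a start site was found for 2 of the 7 genes, E23 and Ldh, beside 11.8% of all protein-coding genes. The 15 sites lay mostly in the stronger part of the list: 12 were above its median, 6 in its strongest 25% and 3 in its strongest 10%. The weakest was at the 22.0th percentile of the list, and their median percentile was 68.0.

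**Figure D2:**
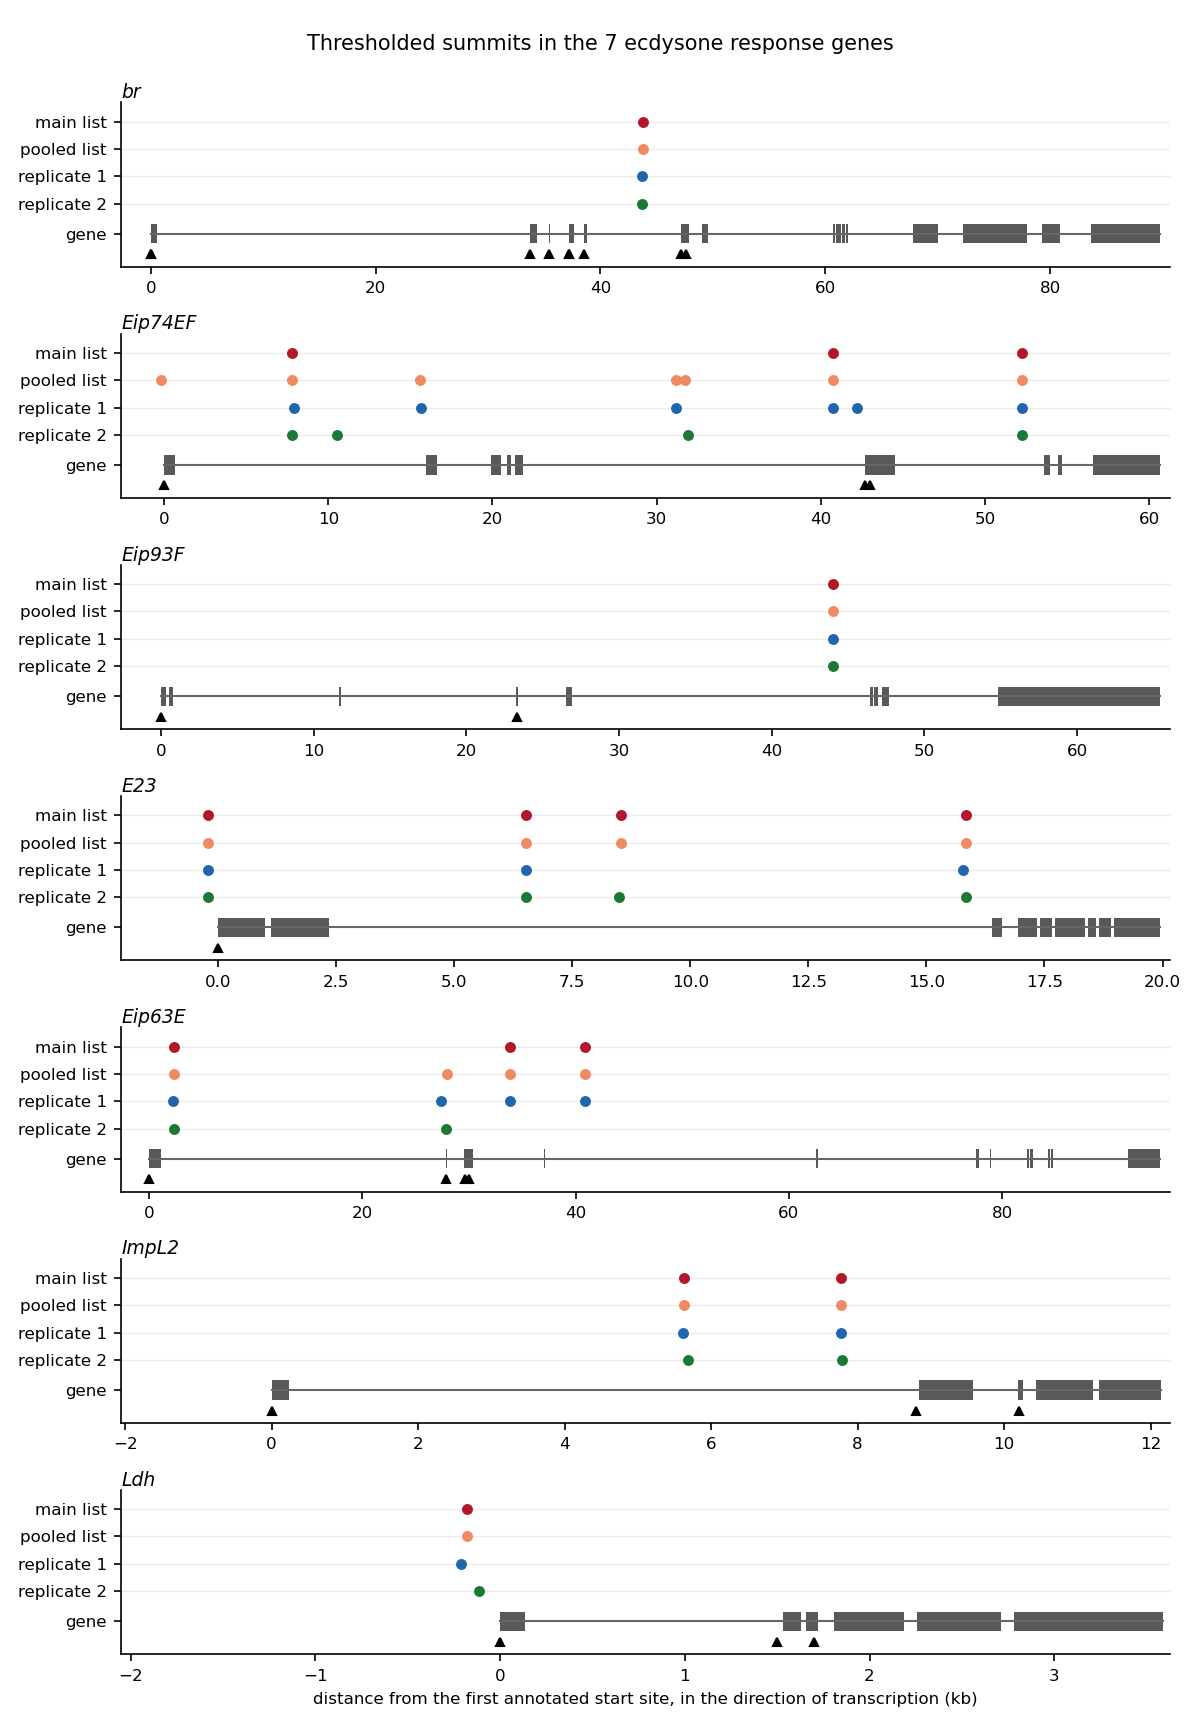
Positions of thresholded summits in the 7 genes, in kb from the first annotated start site in the direction of transcription, with 1 row for the main list, the pooled list and each replicate; grey boxes are exons of any transcript and black triangles are start sites. The single br and Eip93F sites appear in all 4 rows, whereas Eip74EF has 3 main-list summits and 8 in the pooled list. Each site is drawn as 1 point per row, so pooled-list summits of Eip74EF that fell in the same site share a point.

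The br gene (FBgn0283451, chrX:1575132-1664869, plus strand) encodes a family of BTB zinc finger proteins that direct the larva-to-pupa change. It has 16 annotated transcripts from 9 start sites and is 89738 bp long, and its window held 1 summit in each of the 4 thresholded lists. The peak spanned chrX:1618767-1618957 with its summit at 1618883, inside an intron of 48416 bp of br-RN and in an intron of 14 of the 16 transcripts. It lay 43751 bp from the first start site and 3425 bp upstream of the nearest one. Its signal was 232 in the main list (rank 502 of 3261), 143 in replicate 1 (rank 457 of 66090 relaxed peaks) and 86.4 in replicate 2 (rank 781 of 89686). Both replicates listed it, with summits 19 bp apart, and among their thresholded peaks it ranked 440 of 3229 in replicate 1 and 762 of 2709 in replicate 2. The site also lies within Mur2B, an overlapping gene, 728 bp upstream of a Mur2B start site, so the summit cannot be given to br alone. The window held 78 relaxed peaks of the series' ranked list, and the strongest that missed the threshold had a signal of 47.1 and an IDR of 0.227.

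Eip74EF (FBgn0000567, chr3L:17558672-17619325, minus strand) encodes ETS-domain transcription factors, made as E74A and E74B isoforms from separate promoters. Its 5 transcripts start at 17619325 (RA, RC and RE), 17576626 (RB) and 17576320 (RD), 3 start sites in all. All 3 main-list sites were intronic. The strongest, with its summit at 17567087, lay 9233 bp downstream of the RD start in an intron shared by all 5 transcripts, and had a main-list signal of 223 (rank 541). It had a signal of 161 in replicate 1 (rank 371) and 66.5 in replicate 2 (rank 1237), and its summits in the replicates were 29 bp apart. The site was therefore in both thresholded lists, at a lower rank in replicate 2.

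A summit at 17611516, in the first intron of the distal transcripts and 7809 bp downstream of their start, was also in both lists. Its signal was 145 in the main list (rank 1089), 95.3 in replicate 1 (rank 903) and 74.0 in replicate 2 (rank 1013). The remaining site, at 17578576 and 1950 bp upstream of the RB start, was in the main list at 178 (rank 779) and in replicate 1 at 151 (rank 416). In replicate 2 the overlapping relaxed peak had a signal of 27.4 (rank 6822) and an IDR of 0.117, outside the thresholded list. This site was thus listed in 1 replicate, and its main-list IDR was 0.00453.

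Eip74EF also had the most sites outside the main list, 6 of the 8 found over the 7 genes. A summit 215 bp upstream of the distal start, which serves RA, RC and RE, was in the pooled list alone with a signal of 73.1 and an IDR of 0.00298. Replicate 2 had a relaxed peak of 44.7 there with an IDR of 0.491, and replicate 1 had no relaxed peak there. A summit 466 bp upstream of the RB start was in the replicate 1 list alone at 39.5 (rank 3055), and the replicate 2 relaxed peak there was at 2.35. No start site of Eip74EF therefore had a summit within 1 kb that both replicates listed. The other 4 sites were intronic: those 10952 bp and 11508 bp upstream of the RB start and 15611 bp downstream of the distal start were in the pooled list and in 1 replicate each, and that 10555 bp downstream of the distal start was in replicate 2 alone.

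Eip93F (FBgn0264490, chr3R:21949114-22014539, plus strand) encodes E93, a transcription factor with a helix-turn-helix domain of the Pipsqueak type that acts in the death of larval tissues and in adult development. It had 1 site, in all 4 thresholded lists, at chr3R:21993039-21993181 with its summit at 21993109. The site lay 20730 bp downstream of the RA and RC start and 43995 bp from the RB start, in an intron of 34612 bp of RB and in an intron of all 3 transcripts. Its signal was 149 in the main list (rank 1045), 91.4 in replicate 1 (rank 963) and 55.0 in replicate 2 (rank 1689), with summits 5 bp apart. Another relaxed peak of the gene was slightly stronger in replicate 2, at 57.0 (rank 1591), but its IDR of 0.0117 left it just outside the thresholded list.

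E23 (FBgn0020445, chr2L:3334875-3354829, minus strand) encodes an ABC transporter of the ecdysone-induced puff 23E whose overexpression lowers the hormone response. Its 3 transcripts share 1 start site, at 3354829, and its 4 main-list sites were the most of the 7 genes. The promoter site, chr2L:3354960-3355168 with its summit 225 bp upstream of the start, had a signal of 363 in the main list (rank 209), 216 in replicate 1 (rank 206) and 136 in replicate 2 (rank 326). The other 3 sites lay in intron 2, which is 14039 bp long. The strongest of them, 6519 bp downstream of the start, had a signal of 395 in the main list (rank 170), 212 in replicate 1 (rank 213) and 181 in replicate 2 (rank 179), with summits 3 bp apart. The promoter and this intronic site were among the strongest 10% of the main list and were listed in both replicates.

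The E23 summit 15837 bp downstream of the start was weaker, with a signal of 128 in the main list (rank 1338), 69.2 in replicate 1 (rank 1468) and 58.6 in replicate 2 (rank 1541). The nearest start site of any gene to it was that of CG15408, at 6178 bp. The remaining summit, 8520 bp downstream, had a signal of 82.3 in the main list (rank 2324) and 54.8 in replicate 2 (rank 1694). In replicate 1 the overlapping relaxed peak was at 25.9 (rank 5269) with an IDR of 0.381, so this site was the only one of the 15 listed in replicate 2 but not in replicate 1.

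Eip63E (FBgn0005640, chr3L:3515751-3610521, plus strand) encodes a cyclin-dependent kinase required for development, and is the longest of the 7 genes at 94771 bp, with 14 transcripts from 4 start sites. Its strongest site, with the summit at 3518071, lay 2320 bp downstream of the first start, in an intron of 35958 bp. It had a signal of 164 in the main list (rank 896), 92.8 in replicate 1 (rank 939) and 68.7 in replicate 2 (rank 1168), and was in both thresholded lists. The summits 3783 bp and 10797 bp downstream of the last start lay in introns of all 14 transcripts and were weaker, with main-list signals of 75.8 (rank 2546) and 92.3 (rank 2029). They were listed in replicate 1, at 40.9 (rank 2935) and 63.7 (rank 1641). Replicate 2 had relaxed peaks of 31.6 (rank 4810) and 27.3 (rank 6895) there, with IDR values of 0.378 and 0.228. The summit at 10797 bp was 291 bp upstream of a start of lncRNA:CR45820, which is nearer than any start of Eip63E.

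At the Eip63E start 3543580, used by RA, RB, RG, RH and RI, the 2 replicates listed different positions. Replicate 1 had a thresholded summit 469 bp upstream, at 38.6 (rank 3158), and replicate 2 had one 39 bp downstream, at 51.8 (rank 1888). The pooled list held the downstream one, with its summit 106 bp from the start, at 47.3 and an IDR of 0.00812, and the main list held neither. No Eip63E start site had a main-list summit within 1 kb.

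ImpL2 (FBgn0001257, chr3L:4224006-4236147, minus strand) encodes a secreted immunoglobulin-type protein that binds insulin-like peptides and lowers insulin signalling, and was found as a late hormone-induced gene of imaginal discs. It held the strongest site of the 7 genes, chr3L:4228250-4228511 with its summit at 4228376. The signal there was 580 in the main list (rank 72), 295 in replicate 1 (rank 100) and 288 in replicate 2 (rank 65), and the replicate summits were 15 bp apart. Both replicates thus had this site among their 100 strongest peaks. The summit lay in the RA intron of 10196 bp, 7771 bp from the RA start at 4236147, and 1074 bp upstream of the start at 4227302 that RB and RD use. That start is shared with CG46460 on the same strand, so the summit is equally near to both genes. The other site, 3218 bp upstream of the same start and also in the RA intron, had a signal of 142 in the main list (rank 1141), 73.2 in replicate 1 (rank 1366) and 84.2 in replicate 2 (rank 821). Both ImpL2 sites were in both thresholded lists, and 0 lay within 1 kb of an ImpL2 start.

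Ldh (FBgn0001258, chr3L:6259105-6262694, minus strand) encodes lactate dehydrogenase, which interconverts pyruvate and lactate, and is the shortest of the 7 genes. Its 4 transcripts start at 6262694 (RA and RB), 6261160 (RD) and 6261040 (RC). The single site, chr3L:6262703-6263042, had its summit 179 bp upstream of the first of these. Its signal was 137 in the main list (rank 1208), 81.3 in replicate 1 (rank 1167) and 62.0 in replicate 2 (rank 1414), so it was listed in both at similar ranks. Its summits in the replicates were 97 bp apart, the widest gap of the 15 sites. The whole peak lies upstream of the gene, so a window of the gene body alone held no Ldh summit.

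Across the 15 sites, 11 were in both replicates' thresholded lists, 3 in replicate 1 only and 1 in replicate 2 only. In the whole main list 54.8% of the peaks were in both, 21.7% in replicate 1 only, 11.1% in replicate 2 only and 12.3% in neither. Each of the 7 genes had at least 1 site listed in both replicates. The share of all genes with such a site was not counted, and a gene with more sites can have one more easily. All 15 sites had a relaxed peak in both ranked lists, as had 3200 main-list peaks in all, nearly the whole list. Because the main list compares the peaks of the 2 replicates, this was close to fixed in advance. Of the relaxed peaks that missed the main-list threshold, the strongest in each gene had signals from 30.8 at Ldh to 73.1 at Eip74EF. That of Eip63E (49.3, IDR 0.0108) was the nearest of these 7 to the threshold, followed by that of Eip93F (54.0, IDR 0.0276). The rank was better in replicate 1 at 11 of the 15 sites, and at 52.3% of the 3200 main-list peaks ranked in both; the replicates' ranked lists differ in length. The ImpL2 pair of sites and the E23 sites at 6519 bp and 8520 bp ranked better in replicate 2. Ranked by each gene's strongest site in the main list, the order was ImpL2 (97.8th percentile of the list), E23 (94.8), br (84.6), Eip74EF (83.4), Eip63E (72.6), Eip93F (68.0) and Ldh (63.0). In the replicate 1 list ImpL2 (97.1) and E23 (94.0) were also at the top, followed by Eip74EF (89.0), br (86.4), Eip63E (71.9), Eip93F (71.2) and Ldh (65.0). In the replicate 2 list the percentiles were 97.7 for ImpL2, 93.8 for E23, 71.9 for br, 63.7 for Eip74EF, 58.1 for Eip63E, 49.5 for Ldh and 40.0 for Eip93F. Each list's own strongest site was taken, so the site can differ between lists. For E23 in replicate 1 it was the promoter site, and for Eip74EF in replicate 2 the site at 7809 bp. The Eip74EF site at 9233 bp, the strongest in the main list, was at 55.6 in replicate 2. ImpL2 and E23 thus held the top places in all 3 lists, whereas br and Eip74EF, and Eip93F and Ldh, changed places between replicates and are not separated by these ranks.

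**Figure D3:**
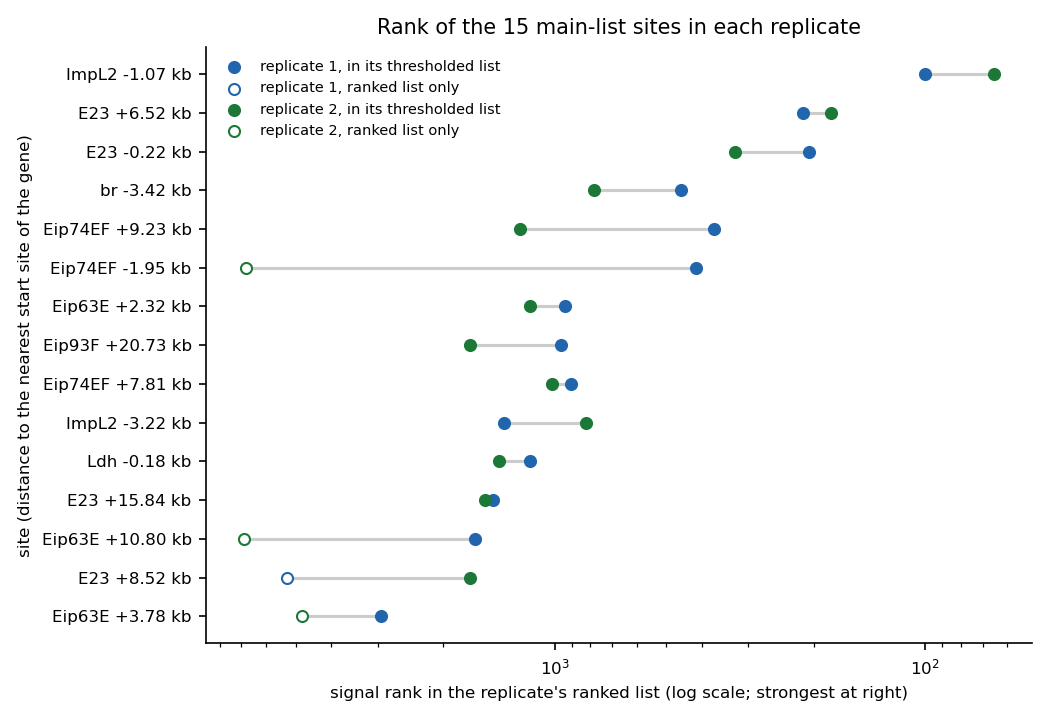
Signal rank of the 15 main-list sites in each replicate's ranked list (horizontal axis, log scale, strongest at the right), ordered by main-list rank; filled points were in that replicate's thresholded list and open points were in the ranked list alone. The ImpL2 site 1074 bp upstream of a start ranks 100 and 65, whereas the Eip74EF site 1950 bp upstream of a start ranks 416 in replicate 1 and 6822 in replicate 2.

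Peak width went with replicate presence. Of the 15 sites, 7 had the most common width of the main list, 340 bp, and 8 were narrower. All 8 narrow sites were in both replicates' lists, beside 3 of the 7 wide ones. In the whole list 94.2% of the 1140 narrower peaks and 33.4% of the 2110 peaks of 340 bp were in both. Median main-list signal was 228 for the narrow sites and 137 for the wide ones, and 214 and 87.0 for narrower and 340 bp peaks in the whole list. Summits of the narrow sites lay 3 to 95 bp apart in the replicates (median 18 bp), and those of the wide sites 7 to 97 bp (median 75 bp). How the authors' software set the width was not given in the sources used here, and its part in these differences was not tested.

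The 200 bp centred on each of the 15 summits held 21.5% to 42.5% G and C, with a mean of 33.5% ± 6.06 (SD over 15 sites). The mean was 35.7% ± 7.0 (SD) over the main list and 47.5% over 92304 relaxed peaks that overlapped no thresholded series peak. The site 1950 bp upstream of an Eip74EF start (21.5%) and the Ldh promoter site (23.5%) were lowest and the br site (42.5%) was highest.

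Words were searched in the same 200 bp on both strands. The short homeodomain word TAAT was present at all 15 sites, beside 92.3% of the main list and 70.4% of relaxed peaks. The longer TAATTA was present at 2 sites, the Eip63E site at 2320 bp and the Eip74EF site at 7809 bp, beside 16.4% of the main list. The paired-class dimer words with spacers of 2 and 3 bases were found at 0 of the 15 sites, beside 2.58% and 2.76% of the main list. AGGTCA, the core word of nuclear receptor sites, was found at 1 site, the Eip74EF site at 9233 bp, beside 3.96% of the main list and 5.40% of relaxed peaks. The 2 ecdysone response elements searched, an exact palindrome and a variant of it, were found at 0 of the 15 sites and in 0 of the 3260 main-list windows. They were present in 0.00108% and 0.00542% of relaxed peaks, so their absence from these windows says little. Looser forms of the element were not searched. These counts describe the letters in the windows alone.

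CACTG, a word common at summits of the main list (52.6%, beside 36.6% of relaxed peaks), was present at 7 of the 15 sites: 6 of the 8 narrow sites and 1 of the 7 wide ones. In the whole list 57.1% of narrower and 50.2% of 340 bp peaks held it. One more CACTG, 98 bp from the Eip74EF summit at 7809 bp, runs over the edge of the 200 bp and was not counted. The longer words ACAGTG and AGTGTA were found at 4 and 3 of the 15 sites, beside 21.0% and 18.9% of the main list, and GTGCAC at 0, beside 10.6%. TATAAA was present at 7 of the 15 sites, including both promoters, beside 35.9% of the main list and 13.2% of relaxed peaks, and GAGAG at 2, beside 24.4% of the main list. In the sequences printed above, the E23 site at 6519 bp had CACTG 73 bp upstream and 77 bp downstream of the summit in the direction of transcription. In the Eip74EF site at 9233 bp the word lay 77 bp upstream and 72 bp downstream, and in the Eip93F site 71 bp upstream and 85 bp downstream. The 2 words were thus 150, 149 and 156 bp apart. This arrangement, with a word 60 to 100 bp out on both sides, was noticed in these sites and then counted. It was present in 6.78% of the main list, 11.0% of its narrower peaks and 0.895% of relaxed peaks. Because the sites were picked by this arrangement, the range of their spacings was set in advance. The nearest words on either side were 84 bp apart at the Eip63E site at 2320 bp. At the ImpL2 site 3218 bp upstream of a start they were 123 bp apart. The E23 site at 6519 bp also had CACTG 110 bp and 128 bp upstream of the summit. The strongest site, that of ImpL2, had 1 CACTG, 68 bp downstream of the summit. The E23 and Ldh promoter windows had none, although both were listed in each replicate.

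**Figure D4:**
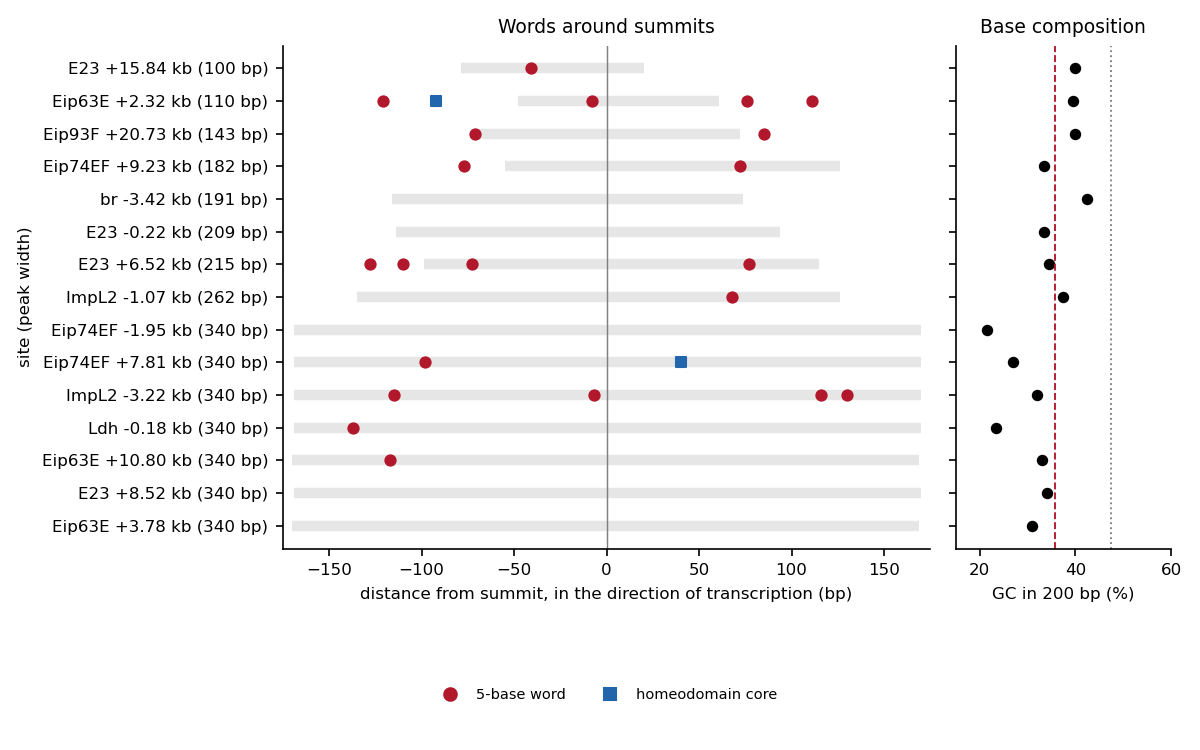
Left, positions of CACTG on either strand (red points, the 5-base word) and TAATTA (blue squares, the homeodomain core) around the 15 main-list summits, in bp from the summit in the direction of transcription, with the peak as a grey bar and sites ordered by peak width; right, G and C in the central 200 bp in percent, with the means of the main list (dashed, 35.7%) and of relaxed peaks (dotted, 47.5%). Words on both sides 60 to 100 bp out appear at the E23 site at 6.52 kb, the Eip74EF site at 9.23 kb and the Eip93F site.

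Other genes of the hormone pathway, taken from a list of 50, were described in the same way: 13 of the 50 (2 of which are noncoding) had a main-list summit in the same window, beside 17.3% of protein-coding genes. Of the listed genes of 20 kb or longer 9 of 15 had one, and of the shorter ones 4 of 35, beside 50% and 14.8% of all. Nuclear receptors made up most of them, 7 of 9: Hr4, which acts in the prepupal cascade, had 9 summits with the strongest at 400, ftz-f1, the competence factor of prepupae, had 8 with the strongest at 214, Eip75B had 6 (252), Hr3 had 5 (228), Eip78C 3 (117), and Hr96 (240) and svp (92.4) 1 each. Hr38 and Hr39 had 0. Of the receptor and its cofactors, EcR had 3 summits (strongest 212) and the coactivator gene tai 5 (193), whereas usp and rig had 0. Of 11 genes of ecdysone uptake and metabolism, 1 had a summit, the importer gene Oatp74D, with 4 (strongest 87.1). These counts are of main-list summits, and counts in the replicates' own lists differed. They were 2 in replicate 1 and 1 in replicate 2 for Oatp74D, 3 and 1 for EcR, and 1 and 3 for Eip78C. For Hr4 they were 11 and 9, and for ftz-f1 9 and 8, not fewer than in the main list. Of the 26 other response genes, 3 did: the cell death gene hid at 368, 305 bp upstream of a start, lncRNA:let7C, the precursor of let-7 and related microRNAs, at 344, and crol at 109. None of the listed salivary glue genes (Sgs3, Sgs4, Sgs5, Sgs7 and Sgs8), and none of ImpE1, ImpE2, ImpE3 and ImpL1, had a main-list summit. Outside the main list, Hr38, ImpE1 and Eip63F-1 each had 1 summit in the pooled list and 1 in the replicate 1 list. The usp and shd genes each had 1 in the replicate 1 list, and ecd had 1 in the replicate 2 list. The strongest sites of ImpL2 (580) and of E23 (395) were thus above and close to the strongest of these 50 genes, that of Hr4 (400). For the rest of the 7 genes the strongest sites ran from 137 at Ldh to 232 at br. These were below the strongest sites of Hr4, hid, lncRNA:let7C, Eip75B and Hr96, and above those of Eip78C, crol, svp and Oatp74D.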

How the data were processed

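Peak lists from 2 biological replicates of 1 group were analysed. The deposited signal per peak is the authors' enrichment statistic, of unstated scale, ranked within each of the 8 lists. Their deposited −log10 IDR (global) showed which relaxed peaks passed 0.01. Deposited score columns, holding the signal of each IDR run's inputs, served only to infer which series list compared the replicates: 0.607 of its input signals were found in the replicates' lists, against 0.0325 for the other. The build is dm6, per the labels. Aligner, peak caller and read depth are not given in the sources used here, so no counting interval was made.

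Summits on the 6 arms were assigned to Ensembl release 115 genes. A site groups thresholded peaks that overlap by 1 bp or more. Replicate ranks are from ranked lists, main-list ranks and all percentiles from thresholded lists. Words were searched in the RefSeq Release 6 genome. Python 3.11.15, pandas 2.3.3, numpy 2.4.6 and matplotlib 3.10.9 were used, and the counting was checked on simulated peaks.

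Named genes were the 7 genes, genes nearest to or overlapping their summits, and listed pathway genes with a main-list summit. Listed genes given as having none, or as having summits outside the main list alone, fall outside this rule. So do Sqor and lncRNA:CR44522, and all of these were picked with their values known. The genes, lists and words were chosen with earlier results of these data known. Of the 50 pathway genes, phm, Eip71CD, Eip55E, Eip63F-2 and let-7-C were matched through synonyms. Neighbouring genes can share a summit. With 1 group and 2 replicates no test was made. Alternatives were the pooled list, each replicate alone, an IDR of 0.001, other windows and distances, and other rules for replicate overlap.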

Additional observations from a re-analysis of the deposited data

How the results depend on the processing

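The 7 genes held 15 main-list summits, and 11 to 21 under the 7 alternatives (11 at an IDR at or under 0.001, 21 in the pooled list, 18 without replicate 2 and 15 without replicate 1). All 7 genes kept a summit under every alternative except a window of the gene body alone, which left 6 and lost Ldh. The 13 pathway genes became 11 to 18. Shares of all protein-coding genes were counted under the main setting alone. The gene counts under the alternatives, including those near a start below, therefore have no such share beside them. Genes with a summit within 1000 bp of a start were 2 in the main list, 2 at 500 bp, 4 at 2000 bp (Eip74EF and ImpL2 added), 4 in the pooled list, and 3 to 4 when leaving out a replicate (3 without replicate 1, 4 without replicate 2). Sites in both replicates were 11, 8 with an overlap of 50% of both peaks, 11 with summits within 100 bp and 15 against ranked lists. The value against ranked lists was close to fixed in advance, since nearly all main-list peaks are in both. No paired analysis was possible because there was 1 group. Read depth is unknown, so a gene without a summit may lack one for want of depth; this was not tested.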

Other observations

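Farther upstream than the 2 kb used, main-list summits lay 2 to 5 kb before 2 of the 7 genes. ImpL2 had one 3505 bp upstream with a signal of 101 (rank 1806) and one 4018 bp upstream with a signal of 223 (rank 545), 521 bp and 8 bp upstream of a start of the neighbouring gene Sqor. Ldh had one 3907 bp upstream with a signal of 85.6 (rank 2236) and one 4106 bp upstream with a signal of 5.47 (rank 3225).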
